A study of Mus musculus with 36 samples.

Results

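The contact landscape of the Foxa2 locus was read from the Foxa2 viewpoint, a point on mouse chromosome 2 at 148046914 (mm10), 55 bases inside the annotated start of Foxa2. It comprises every position with a contact score in the Foxa2 table, 1082 of the 4314 positions over the 4 viewpoints of the study (Foxa2, Gata4, Gata6 and T). Of these, 1077 had a finite score in both wild-type columns and 983 in all 4 columns. The other 5 positions, all within 2.791 kb of the viewpoint, were infinite and were treated as missing, and 94 positions had wild-type scores only. Foxa2 lies on the minus strand (148042877 to 148046969), so lower coordinates are called downstream and higher coordinates upstream. Downstream the profile held 591 finite positions out to 242.062 kb, and upstream 486 out to 199.035 kb, with a median spacing of 329 bp.

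Contacts were measured by UMI-4C, in which DNA ends that are close in the nucleus are ligated, the partners of a chosen viewpoint are sequenced, and molecular identifiers separate ligation events from PCR copies. Mouse embryonic stem cells (ES, day 0) and embryoid bodies (EB, day 6) of 2 genotypes were used: Whsc1+/+, also labelled wild type (WT), and Whsc1-/- (KO), which lacks a histone H3 lysine 36 methyltransferase. The ES were grown on gelatine either in serum-free medium with LIF and the inhibitors PD0325901 and CHIR99021 or in medium with serum, and the labels do not say which served the contact libraries. EB were started as hanging drops in medium with serum and moved to suspension culture. They are aggregates in which several lineages can arise, and the labels name no cell type within them, no ES clone and no source of the line. In such bulk cultures a contact made in more of the cells and one made more often per cell cannot be told apart. The labels list 2 Foxa2 libraries per stage and genotype, 8 in all, yet the table has 1 column for each combination. Every value below is therefore a single pooled value with no replicate error, no known depth and no test. RNA-seq libraries were not analysed here, so the genotype labels and the stage could not be checked against Whsc1 or marker expression.

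Foxa2 encodes a forkhead transcription factor that can bind nucleosomal DNA and that acts in the node, notochord, floor plate and definitive endoderm. Its nearest annotated neighbour is 9030622O22Rik, a long non-coding RNA also known as Falcor. A gene's promoter can be brought near distant regulatory DNA by looping of the chromatin fibre, and in any such profile contacts thin out with distance along the chromosome.

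The positions of the table could be set against sequence where RefSeq promoter windows (GRCm38.p6, the assembly behind mm10) were to hand. A 4C fragment runs from 1 restriction site to the next, so the sites fix where a score can lie. The letters GATC, read in capitals below, are the site of DpnII and MboI and read alike on both strands. The enzyme used is not given in the sources used here. The windows below are on the minus strand: the 250 bases upstream of the Foxa2 start (chr2:148046970-148047219), which flank the viewpoint, and windows of 300 bases around the main cluster of 9030622O22Rik starts (chr2:148040323-148040622) and around a distal start of the same gene (chr2:147980281-147980580), the windows in which neighbouring sites enclose scored positions.
Foxa2: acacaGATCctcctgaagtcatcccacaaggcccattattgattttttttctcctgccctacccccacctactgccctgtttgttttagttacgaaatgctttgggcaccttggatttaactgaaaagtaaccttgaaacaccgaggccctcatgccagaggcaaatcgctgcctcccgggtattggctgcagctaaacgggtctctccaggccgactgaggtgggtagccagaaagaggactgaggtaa
9030622O22Rik, proximal: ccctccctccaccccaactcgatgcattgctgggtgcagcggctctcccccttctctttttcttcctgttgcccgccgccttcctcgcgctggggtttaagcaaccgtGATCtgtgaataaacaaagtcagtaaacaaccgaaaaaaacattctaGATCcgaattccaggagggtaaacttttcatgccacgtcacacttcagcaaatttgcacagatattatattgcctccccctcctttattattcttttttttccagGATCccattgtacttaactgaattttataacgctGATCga
9030622O22Rik, distal: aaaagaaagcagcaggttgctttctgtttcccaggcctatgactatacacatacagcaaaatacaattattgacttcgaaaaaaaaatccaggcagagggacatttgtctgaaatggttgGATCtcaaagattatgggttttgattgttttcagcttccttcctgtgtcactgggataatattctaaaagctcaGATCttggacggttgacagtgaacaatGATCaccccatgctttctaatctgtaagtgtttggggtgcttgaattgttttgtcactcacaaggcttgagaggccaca
The GATC letters were present in 48.0% of all 32817 promoter windows of 300 bases in the RefSeq table, on either strand, so their presence by itself sets none of these windows apart. Over the RefSeq windows within the locus, 11 such sites gave 6 pairs of neighbouring sites, and for 6 of 6 pairs the table held a position within 1 bp of the pair's midpoint. The table thus lists fragment midpoints where this could be looked at.

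In the proximal 9030622O22Rik window, the fragment from 148040511 to 148040622, 6.348 kb downstream of the viewpoint, scored 2.54 in ES WT, 2.51 in EB WT, 2.56 in ES KO and 2.15 in EB KO. The next, from 148040464 to 148040511, scored 2.54, 2.43, 2.59 and 2.22 in the same order. From 148040359 to 148040464 the scores were 2.61, 2.52, 2.73 and 2.33. Neighbouring fragments differed little, and EB KO was the lowest of the 4 columns on each of these fragments. Downstream from 50 kb outward, the median absolute step between adjacent positions was 0.012 in ES WT and 0.021 in EB WT. The smoothing of the scores is unknown, so neighbouring fragments may not be separate measurements, and their likeness is not a result. At the distal window, the fragment from 147980356 to 147980383, 66.545 kb downstream, scored 0.46 in ES WT, 0.11 in EB WT, 0.84 in ES KO and 0.84 in EB KO. There EB WT was the lowest column, and its neighbour from 147980383 to 147980457 had scores of 0.44, 0.11, 0.82 and 0.84.

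**Figure D1:**
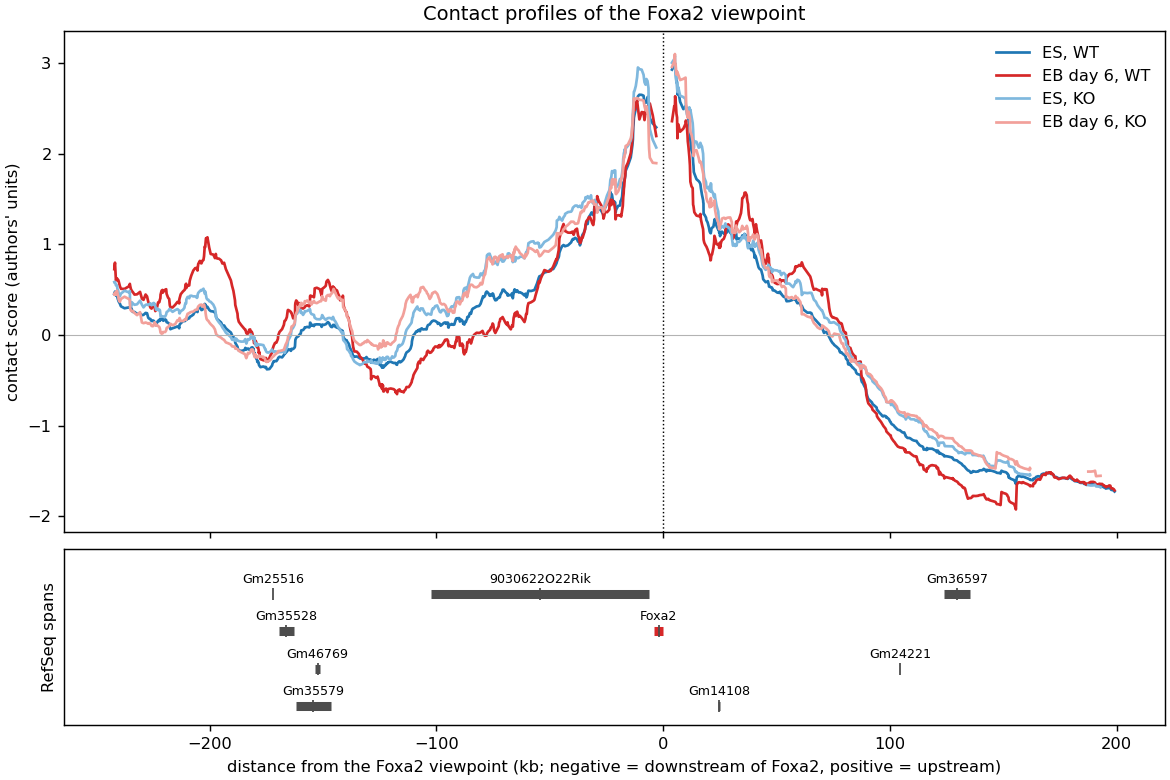
Contact score (authors' units) against distance from the Foxa2 viewpoint (kb, downstream negative) for the 4 pooled columns, with the annotated transcripts drawn to scale. All 4 profiles are high around the viewpoint and lie lower upstream than downstream beyond 100 kb, and the downstream maximum near 201 kb stands highest in EB WT.

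All 4 columns shared 1 general shape. Scores ran from -1.73 to 3.00 in ES WT, from -1.92 to 2.64 in EB WT, from -1.68 to 3.08 in ES KO and from -1.56 to 3.10 in EB KO. Upstream, the score declined by a similar amount in every column: the slope per 10-fold distance was -3.34 in ES WT, -3.31 in EB WT, -3.41 in ES KO and -3.35 in EB KO. The WT slopes rested on 484 positions and the KO slopes on 390, because 94 far upstream positions had WT scores only. The ES WT minimum lay among these, at 199.035 kb. Downstream the slope was shallower, at -1.66, -1.31, -1.81 and -1.73 in that order, and scores stopped declining within the covered region. The median score between 150 and 200 kb was -1.58 upstream and -0.15 downstream in ES WT. Between 200 and 250 kb downstream the medians were higher again, at 0.21 in ES WT, 0.50 in EB WT, 0.35 in ES KO and 0.17 in EB KO. The plot of the profiles shows this as troughs followed by a shoulder on the downstream side. The outermost downstream position, 242.062 kb away, still scored 0.45, 0.73, 0.59 and 0.45. At Gata4 the medians at 200 to 250 kb in ES WT were -0.74 on the side of lower coordinates and -0.34 on the other. At Gata6 they were -0.23 and -1.30, and at T -0.93 and -1.53, set side by side here since each viewpoint has its own table.

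Immediately beside the viewpoint lie the body of Foxa2 and the proximal starts of 9030622O22Rik. The single finite position within Foxa2, 3.077 kb downstream, scored 2.29 in ES WT, 2.20 in EB WT, 2.07 in ES KO and 1.90 in EB KO. It was not the highest of its surroundings: between 6.5 and 12 kb downstream the mean over 11 positions was 2.61, 2.47, 2.83 and 2.52. The proximal 9030622O22Rik starts (148040348 to 148040513) lie at the near edge of that stretch. Farther out, ES WT had a local maximum at 10.5 kb (148035914 to 148036913), with scores of 2.65, 2.38, 2.93 and 2.60. Both KO columns had a maximum within 5 kb of it, and EB WT had none past the prominence used. On the upstream side, 2 positions between 3 and 5 kb averaged 2.95 in ES WT, 2.44 in EB WT, 3.03 in ES KO and 2.99 in EB KO. EB WT was thus the lowest column there, and its lower level continued to 20 kb: between 15 and 20 kb upstream the means were 1.46, 1.13, 1.89 and 1.73. The position 3.866 kb upstream had the most negative WT stage difference of the profile, from 2.93 in ES WT to 2.36 in EB WT, while ES KO and EB KO scored 3.01 and 2.96.

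The sides were compared at equal distance in 5 kb windows. In ES WT the downstream score exceeded the upstream score by a mean of 0.16 at 5 to 50 kb, 0.51 at 50 to 100 kb and 1.28 at 100 to 160 kb. ES KO gave 0.26, 0.65 and 1.22 over the same bands, and EB KO gave 0.14, 0.72 and 1.39. These 3 columns leaned downstream in 10 of 10 windows at 50 to 100 kb. EB WT was different in the middle band, with 0.20, 0.06 and 1.49, and downstream was the greater in 5 of 10 windows there. At 60 to 65 kb the downstream minus upstream difference was -0.53 in EB WT against 0.16 in ES WT, 0.39 in ES KO and 0.63 in EB KO. At 145 to 150 kb it was 2.38 in EB WT against 1.63, 1.59 and 1.80. The side of lower coordinates was not the greater everywhere: at 100 to 160 kb in ES WT the difference of lower minus higher coordinates was -0.59 for Gata4, 0.88 for Gata6 and 0.70 for T. At 50 to 100 kb, EB WT stood apart at T as well. There lower coordinates were the greater in 2 of 10 EB WT windows (mean -0.15), against 10 of 10 in ES WT, ES KO and EB KO. At Gata6 every column had 10 of 10. At Gata4 ES WT, EB WT, ES KO and EB KO had 0, 3, 0 and 2 of 10.

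**Figure D2:**
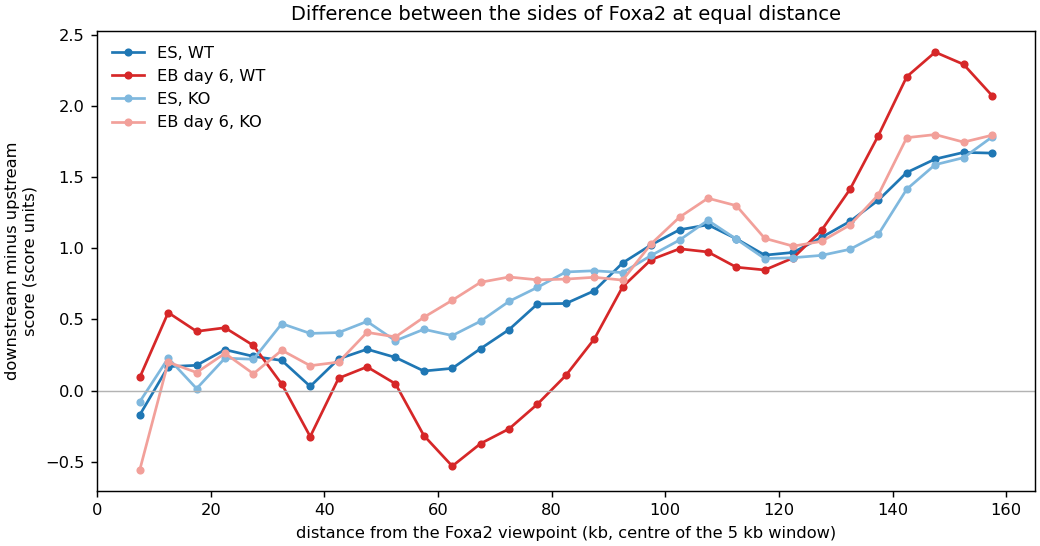
Downstream minus upstream contact score (authors' units) in 5 kb windows at equal distance from the Foxa2 viewpoint (kb), 1 line per pooled column. All 4 lines are higher at 145 to 160 kb than within 50 kb, and EB WT has the lowest mean at 50 to 100 kb and reaches -0.53 at 60 to 65 kb.

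Local maxima mark stretches contacted more than their flanks. They were called on a 1 kb grid from 5 kb outward where the score stood at least 0.2 above the surrounding troughs. Where a side had no trough before the counted profile ended, the score at that end was used. ES WT had 3, EB WT 4, ES KO 3 and EB KO 4. The maximum farthest downstream was present in all 4 columns within 5 kb: at 201.5 kb in ES WT and EB WT (147844914 to 147845913), at 203.5 kb in ES KO and at 204.5 kb in EB KO. Scores at 201.5 kb were 0.32 in ES WT, 1.03 in EB WT, 0.45 in ES KO and 0.24 in EB KO, so EB WT was far above the other columns, which lay close together. Its prominence was 0.25 in ES WT, 0.75 in EB WT, 0.29 in ES KO and 0.30 in EB KO, so at a prominence of 0.4 it remained a maximum in EB WT and was lost in the other 3 columns. No annotated transcript of the RefSeq table overlaps it.

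A second downstream maximum lay at 147.5 kb in both WT columns (147898914 to 147899913), within the lncRNA Gm35579 and close to its annotated start. The scores were 0.13 in ES WT, 0.58 in EB WT, 0.19 in ES KO and 0.44 in EB KO. Here both EB columns lay above both ES columns, and EB KO had a matching maximum at 145.5 kb while the nearest of ES KO stood at 156.5 kb. Another 2 maxima were present in EB WT and had no match in another column, both upstream. At 35.5 kb (148081914 to 148082913) the scores were 1.11 in ES WT, 1.55 in EB WT, 1.10 in ES KO and 1.17 in EB KO. At 61.5 kb (148107914 to 148108913) they were 0.30, 0.78, 0.46 and 0.23. EB WT was the highest column at both. The prominences were 0.69 at 35.5 kb and 0.21 at 61.5 kb, so the latter barely passed 0.2 and is lost at 0.4. EB KO had an unmatched maximum of its own downstream at 106.5 kb, where the scores were 0.07 in ES WT, -0.27 in EB WT, 0.29 in ES KO and 0.53 in EB KO, the reverse order of the EB columns. The downstream side had 2 troughs. Between 100 and 150 kb the lowest score was -0.36 at 124.0 kb in ES WT and -0.65 at 117.4 kb in EB WT. In KO it was -0.33 at 133.8 kb in ES and -0.16 at 125.7 kb in EB. Between 160 and 200 kb it was -0.38 in ES WT, -0.29 in EB WT and -0.30 in EB KO, each at 174.8 kb. In ES KO it was -0.20 at 167.0 kb. The nearer trough thus sat differently between columns, and the farther trough was the deeper in ES WT and EB KO.

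Differentiation was compared as EB minus ES within each genotype. In WT, 3 of 87 windows of 5 kb (3.45%) differed by 0.5 score units or more, against 16.3% of the 344 windows over all 4 viewpoints. All 3 were higher in EB, where the share over all viewpoints was 8.72%. They form 1 block 190 to 205 kb downstream (147841915 to 147856914), which holds the 201.5 kb maximum. Its mean score was 0.23 in ES WT, 0.87 in EB WT, 0.30 in ES KO and 0.13 in EB KO, a WT difference of 0.64 and a KO difference of -0.18. The greatest single difference, at 147845914, ran from 0.31 in ES WT to 1.08 in EB WT and from 0.39 in ES KO to 0.17 in EB KO. Among the other viewpoints, 0 of 86 windows passed in WT at Gata4, 32 of 86 at Gata6 and 21 of 85 at T, and Foxa2 lay below the latter 2.

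**Figure D3:**
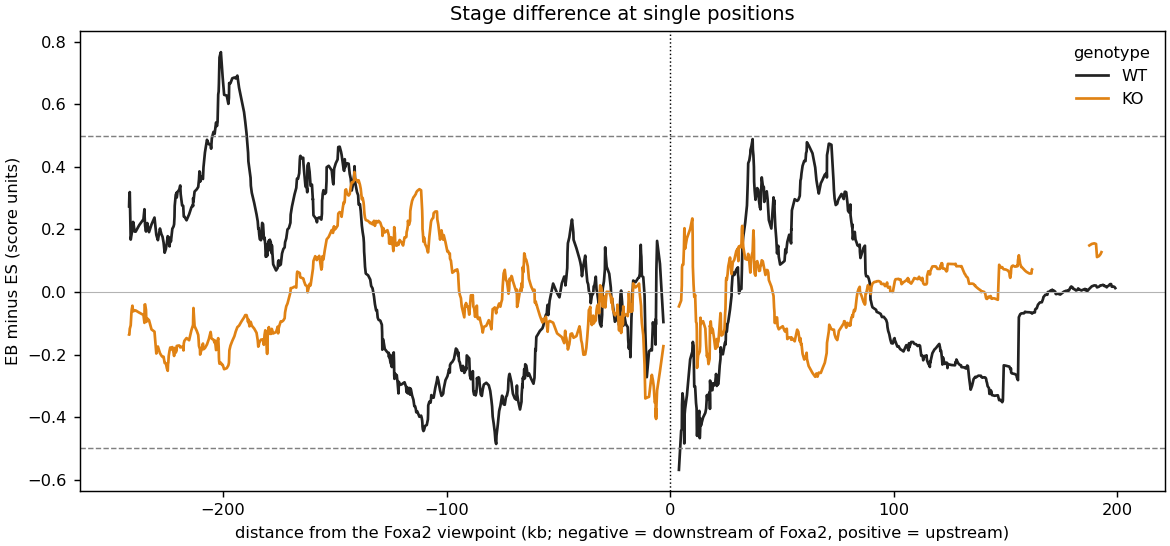
EB minus ES contact score (authors' units) at each position against distance from the Foxa2 viewpoint (kb, downstream negative), for WT and KO, with dashed lines at 0.5 and -0.5. The WT differences alternate in sign over long stretches and reach 0.77 near 201 kb downstream, while the KO differences stay closer to 0 and often have the other sign.

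Position by position, and including that block, the WT differences came in long stretches of a single sign, which is a property of a profile whose neighbouring values move together. Downstream, EB WT was higher at 259 successive positions from 133.2 to 242.1 kb, by a mean of 0.31, and lower at 221 positions from 54.0 to 132.5 kb, with a mean difference of -0.27. Upstream it was lower at 69 positions from 3.87 to 27.4 kb, with a mean of -0.29, higher at 140 positions from 31.2 to 89.4 kb, by 0.26, and lower at 183 positions from 89.6 to 168.8 kb, with -0.19. The WT landscape in EB was thus lower than in ES beside the viewpoint upstream and in the middle of the downstream side, and higher at the distal downstream and the middle upstream stretches.

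In KO, 0 of 80 windows passed 0.5, against 1.51% of 332 windows over all viewpoints. The window differences of Foxa2 spread over an SD of 0.139 in KO and 0.270 in WT. The 2 greatest KO differences at Foxa2 were 0.345 at 140 to 145 kb downstream (147901915 to 147906914), from 0.04 in ES KO to 0.38 in EB KO, and -0.336 at 5 to 10 kb downstream (148036915 to 148041914), around the proximal 9030622O22Rik starts. The first had a like value in WT, from 0.04 to 0.42. The KO differences had long stretches too: EB KO was higher at 182 positions from 94.5 to 161.8 kb downstream, by a mean of 0.20, and lower at 169 positions from 169.9 to 242.1 kb, with a mean of -0.14. Upstream from 46.2 to 83.7 kb it was lower at 83 positions, with -0.13.

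The stage differences of both genotypes had opposite signs at 628 of 983 positions (63.9%), at 61.9% of positions downstream and 66.8% upstream. The same share was 44.7% at Gata4, 23.3% at Gata6, 46.9% at T and 44.4% over all viewpoints, with no test of the difference. The WT difference was the larger in absolute size at 803 positions (81.7%), against 75.4% over all viewpoints. Taking the KO stage difference minus the WT stage difference, 11 of 80 windows (13.8%) reached 0.5, against 18.4% over all viewpoints. Of the 11, 3 were positive and 8 negative, where the shares over all viewpoints were 9.04% and 9.34%. Window medians gave 5 positive and 8 negative. Centred, 5 were positive and 7 negative (8.43% and 9.94% over all viewpoints, 18.4% in either direction), and the windows then included 1 at 5 to 10 kb upstream (148051914 to 148056913), with 0.505. The negative windows lay 190 to 210 kb downstream, with a mean of -0.755, and 55 to 75 kb upstream (148101914 to 148121913), with -0.574. The positive windows lay 105 to 120 kb downstream (147926915 to 147941914), with 0.583. A constant shift between genotypes does not enter the values as deposited. At Gata4 0 of 85 windows passed, at Gata6 24 of 83 and at T 26 of 84.

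**Figure D4:**
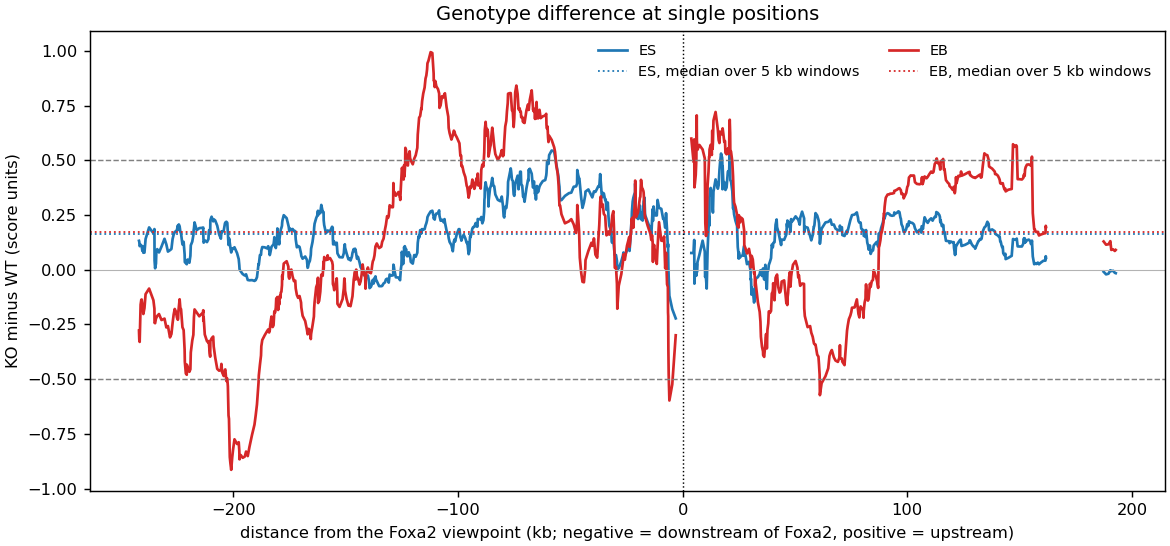
KO minus WT contact score (authors' units) at each position against distance from the Foxa2 viewpoint (kb, downstream negative), in ES and EB, with dotted lines at the medians over 5 kb windows (0.165 and 0.171) and dashed lines at 0.5 and -0.5. The EB line reaches 0.99 at 112.206 kb downstream and -0.91 at 201 kb downstream, and the ES line runs flatter around its median.

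Genotypes were compared within each stage. WT and KO columns lack different positions and have different means, 0.152 in ES WT and 0.323 in ES KO over the 983 shared positions, so the scaling may differ between genotypes and values are also given with the median window difference removed (centred). In ES, 0 of 80 windows passed 0.5, against 3.31% over all viewpoints. The KO score was above WT in 72 of 80 windows, with a median of 0.165, against 66.0% of the 332 windows over all viewpoints. Removing the median splits the windows evenly above and below by construction, so that split is not a result. The 2 greatest differences were 0.485 at 55 to 60 kb downstream (147986915 to 147991914), within 9030622O22Rik, and 0.429 at 15 to 20 kb upstream (148061914 to 148066913). Centred, these were 0.321 and 0.264.

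In EB, 16 of 80 windows (20.0%) passed, against 23.2% over all viewpoints. Of the 16, 13 were higher in KO and 3 lower, where the shares over all viewpoints were 11.7% and 11.4%. Centred, 14 passed (17.5%, against 16.3%), 6 higher and 8 lower, where each direction had 8.13% over all viewpoints, so the preponderance of higher windows was not kept. As deposited, EB KO exceeded EB WT by a mean of 0.746 between 100 and 120 kb downstream (147926915 to 147946914) and 0.640 between 55 and 90 kb downstream (147956915 to 147991914), and, upstream, by 0.525 at 5 to 10 kb and 0.605 at 15 to 20 kb. It was below EB WT at 190 to 205 kb downstream, with -0.761. Centred, the distal block widened to 185 to 210 kb, with -0.794, the higher blocks were 105 to 115 kb (0.676) and 60 to 80 kb downstream (0.542), and a lower block stood at 60 to 75 kb upstream (-0.573). At position 147934708, 112.206 kb downstream, the scores were -0.18 in ES WT, -0.57 in EB WT, 0.09 in ES KO and 0.42 in EB KO. The EB WT column is shared by the WT stage comparison, the EB genotype comparison and the difference of stage differences, so these are not separate pieces of evidence.

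Besides Foxa2, 8 annotated transcripts overlap the covered region, all of them non-coding or pseudogenes. The function of the Gm transcripts is not described here. The longest, 9030622O22Rik, runs from 147944459 to 148040513 on the minus strand, 6.40 to 102.5 kb downstream. Over its 235 positions the mean score was 0.86 in ES WT, 0.70 in EB WT, 1.15 in ES KO and 1.10 in EB KO. EB minus ES was -0.15 in WT and -0.05 in KO, and both genotypes had mixed signs along it. Most of its WT stage difference lay away from its proximal starts: in the first 20 kb from the proximal end the means were 1.89, 1.82, 2.12 and 2.00, and at 60 to 80 kb they were 0.40, 0.06, 0.78 and 0.75. The stage difference at 60 to 80 kb was -0.34 in WT and -0.03 in KO.

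The annotated starts of 9030622O22Rik span much of the gene. Within 2.5 kb of the proximal cluster, 6.55 kb from the viewpoint, the mean scores were 2.54 in ES WT, 2.48 in EB WT, 2.63 in ES KO and 2.30 in EB KO. At the start 14.9 kb away they were 2.02, 2.06, 2.27 and 2.25, and at the starts 61.5 and 66.6 kb away they were 0.45, 0.23, 0.90 and 0.90 and then 0.46, 0.16, 0.85 and 0.89. At the most distal start, 84.9 kb away, they were 0.21, -0.09, 0.57 and 0.49. EB WT was thus the lowest column at the 3 distal starts, which was not so at the proximal cluster or 14.9 kb away. Both KO columns were above both WT columns at the 3 distal starts and at the start 14.9 kb away. The median KO minus WT difference over windows was 0.165 in ES and 0.171 in EB, and the scaling may differ between genotypes. The proximal and distal sequences printed above belong to the 6.55 and 66.6 kb starts.

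**Figure D5:**
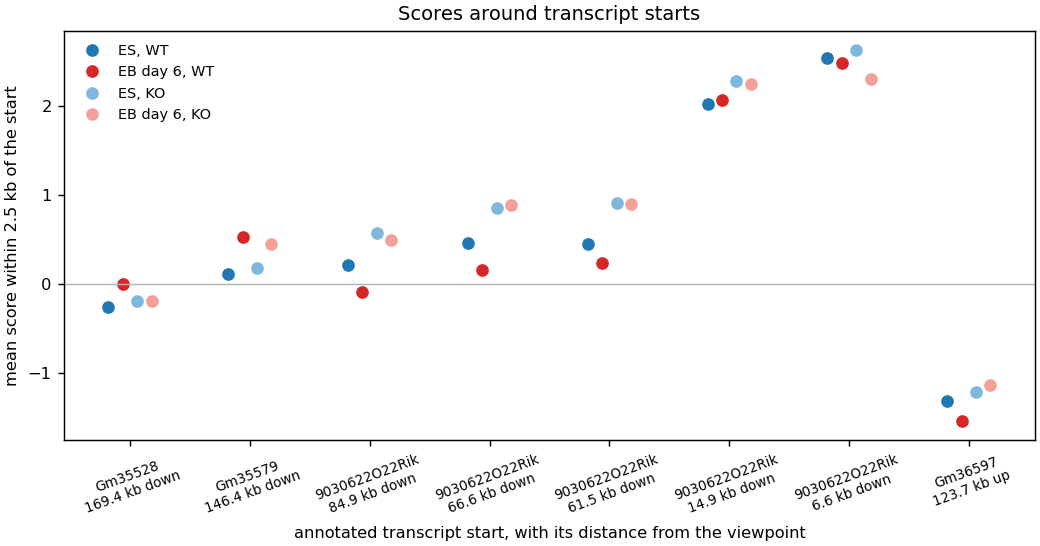
Mean contact score (authors' units) within 2.5 kb of each annotated lncRNA start by distance from the Foxa2 viewpoint (kb), 1 marker per pooled column. EB WT is lowest at the 3 distal 9030622O22Rik starts and the Gm36597 start, and highest at the Gm35579 and Gm35528 starts.

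Farther downstream, Gm35579, a lncRNA on the minus strand 146.4 to 162.0 kb away (147884878 to 147900502), scored a mean of 0.09 in ES WT, 0.43 in EB WT, 0.23 in ES KO and 0.37 in EB KO over 36 positions. EB exceeded ES at all 36 in both genotypes, by a mean of 0.34 in WT and 0.14 in KO. Around its start, 146.4 kb away, the scores were 0.11, 0.53, 0.18 and 0.45, with stage differences of 0.42 and 0.28. It was the annotated span where both genotypes differed between stages in the same direction with means above 0.1. Gm46769 lies within it, and its nearest position scored 0.12, 0.52, 0.18 and 0.35.

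Beyond it, the lncRNA Gm35528, on the plus strand 163.0 to 169.4 kb away (147877504 to 147883917), scored -0.19 in ES WT, 0.19 in EB WT, -0.09 in ES KO and -0.05 in EB KO over 15 positions. Here EB WT stood alone, with a stage difference of 0.38 in WT and 0.04 in KO. The small nuclear RNA gene Gm25516, 172 kb away, had 1 nearest position with scores of -0.32, -0.16, -0.18 and -0.24. It lies in the trough before the distal block.

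Upstream, the pseudogene Gm14108, 24.0 to 25.0 kb away, scored 1.14 in ES WT, 0.99 in EB WT, 1.25 in ES KO and 1.21 in EB KO over 5 positions. The small nucleolar RNA gene Gm24221, 104 kb away, had 1 position with -1.05, -1.24, -0.88 and -0.85. The lncRNA Gm36597, on the plus strand 123.7 to 135.4 kb away (148170607 to 148182350), scored -1.40, -1.64, -1.27 and -1.20 over 23 positions. It was the least contacted annotated span, EB was below ES at all 23 positions in WT (mean -0.24) and above at all 23 in KO (mean 0.07). Gm35579, farther from the viewpoint on the downstream side, scored well over 1 unit higher in every column. At equal distance, 125 to 130 kb, downstream exceeded upstream by 1.08 in ES WT, 1.13 in EB WT, 0.95 in ES KO and 1.05 in EB KO.

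The 94 positions with WT scores only all lay upstream, from 161.881 to 199.035 kb (148208795 to 148245949). Their median was -1.58 in both ES WT and EB WT. The EB minus ES difference there ran from -0.068 to 0.025, with a median of 0.005, and was within 0.05 of 0 at 86 of 94 positions. Over the 143 positions before them, from 100.009 to 161.785 kb, it ran from -0.352 to -0.063, with a median of -0.227, and 0 were within 0.05. The WT stage difference thus was near 0 over the same stretch that lacks KO scores. The WT difference had left its lower level just before that stretch, between 155.530 and 155.908 kb, where the EB WT score stepped from -1.92 to -1.65. Within the stretch 8 positions from 187.452 to 192.844 kb did have KO scores: their medians were -1.65 in ES WT, -1.64 in EB WT, -1.66 in ES KO and -1.53 in EB KO, with a KO stage difference of 0.112 to 0.156. Positions without KO scores made up 8.69% of the Foxa2 profile, against 1.10% for Gata4, 2.68% for Gata6 and 1.42% for T.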

How the data were processed

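UMI-4C scores around the Foxa2 viewpoint were read from 1 table with 1 column per stage and genotype. The values are a score made by the authors, deposited as such per the file headers. For the log base, smoothing, scaling and pooling of 2 libraries per group, nothing was given in the sources used here. The submitters' processing notes name the mm10 build and the tools BWA, STAR and deepTools, with no role stated. Since each group had 1 pooled column, no test, interval or depth could be had.

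Infinite scores were left out. The mean score was taken over windows of 5 kb, starting 5 kb from the viewpoint, with at least 5 positions per window, and a difference of 0.5 was counted. Centred values had the median over windows subtracted. Maxima needed a prominence of 0.2 on a 1 kb grid and were matched within 5 kb. The text names every annotated transcript in the region, the maxima of both WT columns, each block past 0.5, and otherwise the 2 greatest differences; the EB KO maximum at 106.5 kb, the position at 112.206 kb and single windows of the side comparison were chosen after their values were seen. Transcripts and promoter windows came from RefSeq (GRCm38.p6). Counting was tested on simulated data for the WT stage comparison, where 20 of 20 changed windows among 87 were found, with 0 false ones. The simulated steps filled whole windows and exceeded the size counted, with small independent noise at each position, unlike the smooth real profiles. This outcome was close to fixed in advance, so it checks the counting code and not the accuracy of the calls. Python 3.11.15, pandas 2.3.3, numpy 2.4.6, scipy 1.17.1 and matplotlib 3.10.9 were used. Members, lists and thresholds were chosen with earlier results of these data known.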

Additional observations from a re-analysis of the deposited data

Results flagged for a closer look

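In 5 of 80 windows of 5 kb the EB minus ES difference was at least 0.2 in one direction in WT and at least 0.2 in the other in KO. This size was chosen after the data were seen. The count was not made at the other viewpoints, so no share stands beside it and it is not read as a trait of Foxa2. Each group has 1 pooled column, so the difference between genotypes was not tested. The KO stage difference minus that of WT was -0.85 at 195 to 200 kb downstream, where WT was 0.65 and KO -0.21. It was 0.67 at 110 to 115 kb downstream (WT -0.40, KO 0.27) and 0.52 at 115 to 120 kb downstream (WT -0.31, KO 0.21). Upstream it was -0.67 at 60 to 65 kb (WT 0.44, KO -0.23) and -0.60 at 65 to 70 kb (WT 0.35, KO -0.24). All 5 kept opposite signs after centring, but the KO value at 195 to 200 kb downstream was then -0.18, short of 0.2.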

How the results depend on the processing

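Over 42 results and 118 alternatives, 82 alternatives moved a score by less than 0.1 or a share or number by less than 1.5 times, 32 moved more and 4 turned a sign. The size counted as a difference mattered: at 0.3, the share of windows was 33.3% for EB against ES in WT, 2.5% in KO, 16.2% for KO against WT in ES, 52.5% in EB and 41.2% for the difference of stage differences. At 0.75 it was 0% for the WT stage comparison, 5% for KO against WT in EB and 2.5% for the difference of stage differences. With window medians KO against WT in ES was 1.25%. With 2 kb windows, downstream minus upstream was 0.543 in ES WT, 0.446 in EB WT, 0.621 in ES KO and 0.640 in EB KO, from 0.739, 0.707, 0.786 and 0.831. At a prominence of 0.1 the columns had 5, 14, 6 and 8 maxima, and at 0.4 ES WT had 1 and EB KO 2. From 10 kb outward the upstream slopes were -3.45, -3.49, -3.59 and -3.48 and the downstream slope of EB WT was -1.16.

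Centring turned the KO minus WT difference in ES to -0.071 at Gm35528, -0.024 at Gm35579, -0.060 at Gm14108 and -0.032 at Gm36597, and left 0.129 at 9030622O22Rik. In EB the centred values were -0.413, -0.228, 0.044, 0.271 and 0.226. With medians over the span, 9030622O22Rik gave 0.453 in ES and 0.595 in EB. No paired analysis was possible because each stage and genotype has 1 pooled column, and leaving out a replicate could not be run for the same reason. Depth is unknown, so what it limits cannot be stated.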

Other observations

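Steps between adjacent positions less than 2 kb apart were listed from 50 kb outward, and nearer ones were not. In EB WT the score went from -1.92 at 155.530 kb to -1.65 at 155.908 kb upstream, a step of 0.273 over 378 bp, where the median absolute step of that column upstream of the viewpoint from 50 kb outward was 0.010. Within the same limit, ES WT had its greatest upstream step at the same place, of 0.072, and both KO columns had theirs between 146.516 and 147.100 kb upstream, of 0.068 in ES KO and 0.180 in EB KO. On the downstream side beyond 50 kb the greatest step of EB WT, 0.196, lay between 241.339 and 241.757 kb, at the outer end of the profile.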
